A study of Mus musculus with 89 samples.

Results

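The genes described here were 37 genes of T cell identity and T cell receptor signalling, measured in mouse lung as 37 of the 22911 genes that the arrays could name. They were chosen by symbol, as the genes of the receptor complex, its coreceptors, the surface receptors, the kinases and adaptors next to the receptor, and the transcription factors of the lineage, and the arrays carried 59 probes for them. The study asked whether a carboxylated (CuO COOH), a methylaminated (CuO NH3) or a PEGylated (CuO PEG) surface changes what copper oxide nanomaterial does to healthy and to allergic lung. RNA was hybridized to 2-colour Agilent arrays, and each of the 89 samples in 26 groups was a pool of 2 RNA samples carrying Cy3 or Cy5.

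All mice were female BALB/c animals of 6 to 8 weeks, and all had been sensitized to ovalbumin (OVA) with alum, the controls included. PBS controls (7 samples) were then challenged with PBS and OVA controls (8 samples) with OVA, given into the airways by oropharyngeal aspiration on 4 days. The exposed groups received uncoated CuO or a coated material (CuO COOH, CuO NH3, CuO PEG) with each PBS or OVA challenge, at 2.5, 10 or 40 μg/mouse. CuO NH3 10 and CuO PEG 10 had 4 samples each and every other exposed group 3, and lung was taken 24 h after the last dose. The doses were equal in mass of whole material, of which the coating was a part, and not in copper. A value below is a normalized log2 intensity with the dye and slide effects removed, and a gene was called higher or lower at a Benjamini-Hochberg adjusted p under 0.05 over all genes with an absolute log2 fold change over 0.58, which is 1.49-fold.

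The T cell receptor recognizes peptide on MHC molecules, and the CD3 chains carry its signal into the cell, where the kinases Lck and Zap70 phosphorylate the adaptors Lat and Lcp2 (SLP-76). CD4 and CD8 bind the MHC molecule and bring Lck to the receptor, and costimulatory receptors and the receptors for IL-2 and IL-7 decide how the cell goes on to divide, survive or stop. In allergic lung, helper T cells that see OVA are a source of type 2 cytokines, and regulatory T cells that express Foxp3 hold the response back. Several of these genes are not only T cell genes: natural killer (NK) cells also use Cd2, Cd7, Il2rb, Txk, Cd247 and Lck, innate lymphoid cells use Il7r, Thy1 and Icos, B cells use Cd27 and Ikzf3, myeloid cells use Lcp2, and endothelium uses Ets1. In whole lung RNA, fewer cells of a type, less RNA per cell and dilution by RNA of other cells cannot be told apart. The paper counted cells and reported more lymphocytes in lavage after CuO materials in both challenges. In lung tissue of PBS-challenged mice it saw no rise in T cell subtypes. In OVA-challenged mice it reported more CD3+ T cells, chiefly CD4+, with all materials except CuO PEG, above all at the middle dose. How these counts relate to the RNA values was not tested.

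Of the receptor complex, Cd3g, Cd3d and Cd3e are shown first because they lie side by side. Their changes differed in size, but so did those of the Cd3e probes, at -0.70 and -0.27 with CuO 40 against PBS. The part of the probes in the differences between these genes was not tested. Cd247 lies on chromosome 1. Cd3g, Cd3d and Cd3e are neighbours on chromosome 9 with 0 genes between them, Cd8b1 and Cd8a on chromosome 6 likewise, and Cd5 and Cd6 lie on chromosome 19 with 1 gene between them. The starts of Cd3g and Cd3d are 1355 bases apart on opposite strands, and that of Cd3e is 27825 bases farther. Their promoter windows, and that of Il2ra as the gene with the second largest rise under OVA, run from 250 bases before the start to 50 bases from it and are given 5′ to 3′ from RefSeq (GRCm38.p6). Capitals mark matches on either strand to AGGAAG (ETS), CTTTGA (TCF/LEF) or TGTGGT (RUNX).
Cd3g promoter, chr9:44980382-44980681, minus strand: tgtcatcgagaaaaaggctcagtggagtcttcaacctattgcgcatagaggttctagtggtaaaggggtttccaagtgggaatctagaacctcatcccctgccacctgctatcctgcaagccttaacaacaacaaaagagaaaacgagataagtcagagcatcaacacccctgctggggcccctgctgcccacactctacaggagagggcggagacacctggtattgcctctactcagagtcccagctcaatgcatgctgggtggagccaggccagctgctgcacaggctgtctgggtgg
Cd3d promoter, chr9:44981536-44981835, plus strand: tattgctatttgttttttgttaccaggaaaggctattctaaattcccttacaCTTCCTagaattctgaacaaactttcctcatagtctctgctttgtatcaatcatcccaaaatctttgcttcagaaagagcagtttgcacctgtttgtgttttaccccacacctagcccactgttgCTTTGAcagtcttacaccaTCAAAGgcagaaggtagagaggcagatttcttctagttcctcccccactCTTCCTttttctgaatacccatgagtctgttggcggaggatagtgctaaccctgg
Cd3e promoter, chr9:45009562-45009861, minus strand: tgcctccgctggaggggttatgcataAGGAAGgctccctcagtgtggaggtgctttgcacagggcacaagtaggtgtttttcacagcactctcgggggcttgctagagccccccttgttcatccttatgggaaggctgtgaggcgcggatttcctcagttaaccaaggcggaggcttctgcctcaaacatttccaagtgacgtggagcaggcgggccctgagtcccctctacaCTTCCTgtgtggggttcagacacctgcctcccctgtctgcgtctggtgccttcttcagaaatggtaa
Il2ra promoter, chr2:11642542-11642841, plus strand: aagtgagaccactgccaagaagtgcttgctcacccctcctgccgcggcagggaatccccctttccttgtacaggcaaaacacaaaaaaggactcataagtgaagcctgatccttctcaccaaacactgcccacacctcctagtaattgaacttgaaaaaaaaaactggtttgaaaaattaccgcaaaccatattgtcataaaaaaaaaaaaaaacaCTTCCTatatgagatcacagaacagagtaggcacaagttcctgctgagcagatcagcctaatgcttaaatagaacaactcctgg
The letters searched were found 2 times for ETS and 2 times for TCF/LEF before Cd3d, 2 times for ETS before Cd3e, 1 time for ETS before Il2ra and 0 times before Cd3g. Of the 34 windows of the 24 genes that the RefSeq table held, 52.9% held AGGAAG, against 35.4% of all 32851 windows. CTTTGA was in 32.4% of them against 16% of all windows, and TGTGGT in 17.6% against 16.8%. A match is a string of letters, not a bound site, and the windows of Cd4, Cd8b1, Cd2, Cd6, Cd7, Thy1, Cd28, Icos, Il2rb, Sh2d1a, Skap1, Ikzf3 and Ets1 were not analysed here.

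OVA challenge alone raised Icos, Il2ra and Il2rb most, by more than 1 on the log2 scale, followed by Lcp2 (0.98), Thy1 (0.84) and Foxp3 (0.77). Of the CD3 chains Cd3g was called higher, Ctla4 (0.55) missed the fold threshold, and Cd4, Cd8a and Cd8b1 did not pass the test. Lef1, a transcription factor of naive T cells, fell. In all, 14 of 37 genes were called higher, beside 4.49% of all genes, and 1 was called lower, beside 1.9%. The median log2 fold change of the 37 genes was 0.49, and that of all genes was -0.01. The 7 PBS and 8 OVA samples did not overlap for 16 genes that were higher, beside 7.73% of all genes, and for 1 that was lower, beside 6.75%.

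Icos, a costimulatory receptor that appears on activated T cells, ranged from 7.21 to 7.53 (median 7.35) in PBS samples and from 8.57 to 9.22 (median 8.75) in OVA samples. Its log2 fold change was 1.46 ± 0.13 (SE), with an adjusted p of 6.65e-15 by limma. Il2ra, the IL-2 receptor chain found on activated and regulatory T cells, went from 6.73 to 7.25 (median 6.98) to 7.84 to 8.84 (median 8.38). For both genes every OVA sample was above every PBS sample. Il2rb, the signalling chain for IL-2 and IL-15, was at 7.89 to 8.25 (median 8.03) in PBS and 9.06 to 9.50 (median 9.20) in OVA samples, again without overlap. The log2 fold changes were 1.36 ± 0.13 for Il2ra (adjusted p = 1.56e-13) and 1.16 ± 0.10 for Il2rb (adjusted p = 4.21e-15). Foxp3, the factor that defines regulatory T cells, was at 5.83 to 6.26 (median 6.05) in PBS and 6.55 to 7.00 (median 6.84) in OVA samples. The groups did not overlap, and the log2 fold change was 0.77 ± 0.10 (adjusted p = 1.13e-09).

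Lef1 moved the other way. It was at 9.85 to 10.78 (median 10.20) in PBS samples and at 9.30 to 9.85 (median 9.61) in OVA samples, with a log2 fold change of -0.68 ± 0.09 (adjusted p = 7.36e-09). The groups did not overlap, with the nearest samples of both at 9.85. Ets1, a factor of resting T cells and of endothelium, had a log2 fold change of -0.41 with an adjusted p of 1.96e-05 and missed the fold threshold. The endothelial markers Cdh5 (-0.66, called lower) and Pecam1 (-0.40, not called) were lower too, and their part in the change of Ets1 was not tested. Tcf7, the partner of Lef1 in naive and memory T cells, had -0.04 (adjusted p = 0.822).

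The other genes called higher under OVA were spread over the surface receptors and the signalling chain. Among the 6 adhesion and accessory receptors, Thy1 (0.84), Cd5 (0.74), Cd6 (0.68) and Slamf6 (0.61) rose, where Cd5 and Cd6 are scavenger-type receptors that restrain receptor signalling and Slamf6 works with the adaptor Sh2d1a (SAP). Among the 11 kinases and adaptors, Lcp2 rose by 0.98, Lat by 0.69, Zap70 by 0.68, Sh2d1a by 0.63 and Lck by 0.59. Of the 4 genes of the receptor complex only Cd3g was called, at 0.65, while Cd3d (0.49) and Cd3e (0.40) passed the p threshold without reaching the fold threshold and Cd247, the zeta chain, had an adjusted p of 0.0858. Cd3e was at 8.10 to 8.57 (median 8.26) in PBS samples and 8.37 to 8.90 (median 8.71) in OVA samples, which overlapped. Cd4 had 7.54 to 7.96 (median 7.65) and 7.66 to 7.94 (median 7.84), a log2 difference of 0.12 (adjusted p = 0.134), and Cd8a 6.22 to 6.71 and 6.06 to 7.24, a difference of 0.16 (adjusted p = 0.252). Both overlapped, and Cd8b1 had a difference of 0.10 (adjusted p = 0.61). The Cd4 probes had 0.25 and -0.01. Macrophage and monocyte markers moved with this comparison: 5 of 6 were called higher, their mean level was 10.44 to 10.63 in PBS and 11.36 to 11.81 in OVA samples, and their part in the change of Lcp2 was not tested. Fitted within slides 1 to 3 and within slides 4 to 6, Lef1 was called lower in each. Of the genes called higher, Ctla4, Slamf6 and Sh2d1a were called only in slides 1 to 3 and Cd7 and Lck only in slides 4 to 6. The others were called in both.

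**Figure D1:**
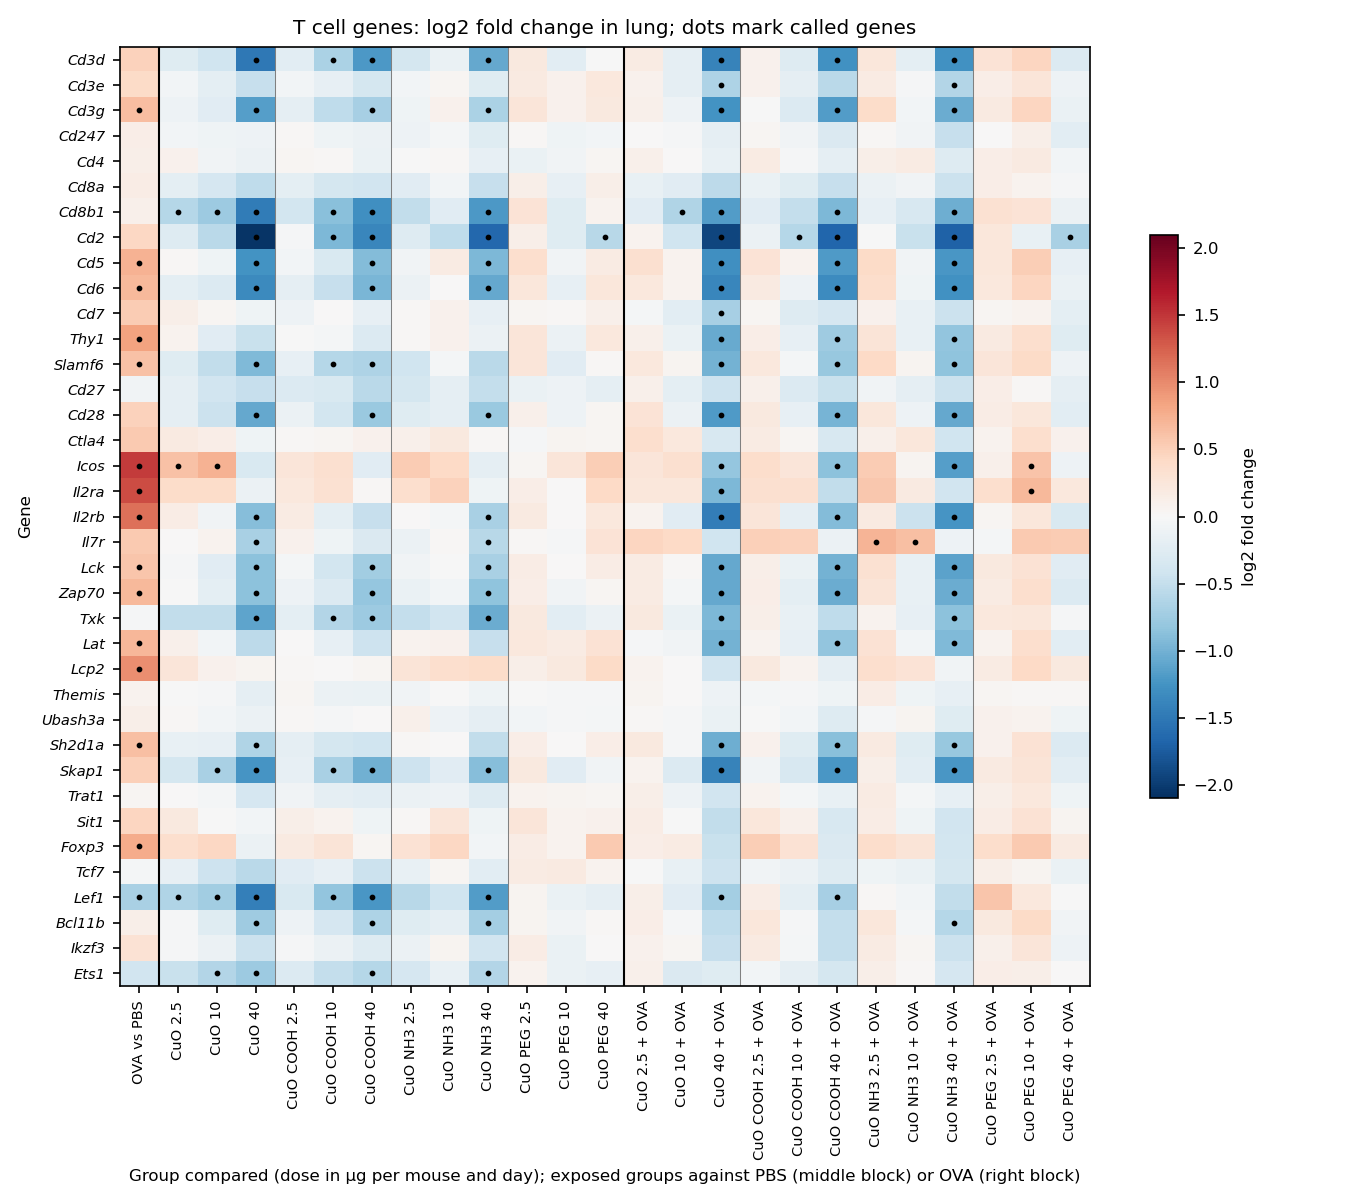
Log2 fold change of each of the 37 genes (rows) in OVA against PBS controls (left column), in each exposed group against PBS controls (middle block) and in each OVA-challenged exposed group against OVA controls (right block), with a dot where the gene was called. The columns of CuO, CuO COOH and CuO NH3 at 40 μg/mouse are blue for most genes in both blocks with 15 to 21 calls of lower level each, and the columns of CuO PEG hold 1 call of lower level at that dose.

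In PBS-challenged mice the 40 μg/mouse dose of CuO lowered T cell genes across all roles, by up to 4.16-fold for Cd2. Of the 37 genes, 18 were called lower, beside 5.05% of all genes, and 0 were called higher, beside 6.89%. CuO COOH 40 lowered 15 (all genes 3.95%) and CuO NH3 40 lowered 16 (all genes 5.4%), and neither raised any (all genes 5.31% and 6.86%). The median log2 fold changes were -0.57, -0.43 and -0.50 for CuO, CuO COOH and CuO NH3, and 36, 32 and 35 of the 37 values were below 0, against 49.1% of all genes for CuO. CuO PEG 40 lowered 1 gene, beside 0.807% of all genes, with a median of 0.07. The 3 CuO 40 samples lay below all 7 PBS samples for 25 genes (16.2% of all genes), the CuO COOH 40 samples for 21 (15.5%), the CuO NH3 40 samples for 20 (16.9%) and the CuO PEG 40 samples for 1 (7.94%). These 4 comparisons share the PBS samples. For CuO COOH 40 the count was 9 without its replicate 3.

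Cd2, an adhesion receptor of T and NK cells, gave the largest fall under CuO 40. The PBS samples lay at 10.86 to 11.39 (median 11.06), the CuO 40 samples at 9.14, 9.07 and 8.85, the CuO COOH 40 samples at 9.41, 10.14 and 9.53, and the CuO NH3 40 samples at 9.60, 9.45 and 9.21. The CuO PEG 40 samples lay at 10.43, 10.63 and 10.41, between the PBS samples and the other exposed samples without overlap with either. The level fell to 24.0% of the PBS level with CuO (log2 fold change -2.06 ± 0.15, adjusted p = 2.61e-18), to 38.6% with CuO COOH (-1.37 ± 0.15, adjusted p = 1.5e-11) and to 31.9% with CuO NH3 (-1.65 ± 0.14, adjusted p = 2.17e-15). With CuO PEG it fell to 66.8% (-0.58 ± 0.14, adjusted p = 0.00267), a call next to the fold threshold that 4 of 9 other processings gave.

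Of the genes of the receptor complex, Cd3d and Cd3g were called lower and Cd3e and Cd247 were not. Cd3d was at 9.35 to 10.14 (median 9.77) in PBS samples, at 8.46, 8.14 and 8.27 in CuO 40 samples, at 8.72, 8.76 and 8.26 in CuO COOH 40 samples and at 8.68, 8.64 and 8.81 in CuO NH3 40 samples. All 9 of these samples were below every PBS sample, and the CuO PEG 40 samples, at 9.47, 9.88 and 9.98, were inside the PBS range. The log2 fold changes of Cd3d were -1.50 ± 0.15, -1.21 ± 0.15, -1.08 ± 0.15 and -0.01 ± 0.15 in this order of materials, with adjusted p-values of 2.01e-12, 2.47e-09, 8.57e-09 and 0.99. Cd3g fell with the same 3 materials by 1.16, 0.70 and 0.66. Cd3e had -0.48 (adjusted p = 0.000525), -0.37 (adjusted p = 0.00931) and -0.25 (adjusted p = 0.0709), without reaching the fold threshold, from samples at 7.91, 7.78 and 7.77 with CuO, 7.78, 8.08 and 7.92 with CuO COOH and 7.91, 8.20 and 8.07 with CuO NH3, beside 8.10 to 8.57 in PBS samples. All but 1 of these 9 samples were below the PBS range, and the CuO PEG 40 samples of Cd3e, at 8.32, 8.50 and 8.75, were within or above it. Its probes did not give the same size, since 1 had -0.70 and another -0.27 under CuO 40.

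Of the coreceptors, Cd8b1 was called lower and Cd8a and Cd4 were not. Cd8b1, the beta chain of CD8 on conventional cytotoxic T cells, was at 8.80 to 9.68 (median 9.23) in PBS samples, at 8.10, 7.47 and 7.60 with CuO 40, at 8.06, 8.08 and 7.55 with CuO COOH 40 and at 8.13, 7.71 and 8.11 with CuO NH3 40. No sample of these 3 groups reached the lowest PBS sample, and the log2 fold changes were -1.47 ± 0.19, -1.29 ± 0.19 and -1.21 ± 0.18 (adjusted p = 1.24e-09, 5.48e-08 and 4.84e-08). The CuO PEG 40 samples of Cd8b1, at 8.73, 9.43 and 9.60, overlapped the PBS range. Cd8a, the alpha chain, was at 6.22 to 6.71 (median 6.41) in PBS samples, at 6.03, 5.79 and 5.93 with CuO, at 6.17, 6.04 and 5.95 with CuO COOH, at 5.92, 6.00 and 5.99 with CuO NH3 and at 6.36, 6.58 and 6.74 with CuO PEG. The first 3 groups were below every PBS sample, with log2 fold changes of -0.53, -0.40 and -0.48 that passed the p threshold but not the fold threshold. The Cd8a probes did not give the same size. The probe well above background in 78 samples had -0.88, -0.57 and -0.71 with the 3 materials. The other, in 29, had -0.18, -0.22 and -0.26, and the gene value is their mean. Cd4 had -0.13, -0.13 and -0.18 (adjusted p = 0.297, 0.31 and 0.106), from samples at 7.58, 7.63 and 7.52 with CuO, 7.55, 7.56 and 7.61 with CuO COOH, 7.55, 7.48 and 7.56 with CuO NH3 and 7.66, 7.76 and 7.85 with CuO PEG. All 4 groups overlapped the PBS range of 7.54 to 7.96.

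Among the accessory receptors, Cd5 and Cd6 fell with all 3 materials, by 1.25 and 1.34 with CuO, by 0.91 and 0.97 with CuO COOH and by 0.94 and 1.07 with CuO NH3. Slamf6 fell with CuO (-0.92) and CuO COOH (-0.64) and had -0.57 with CuO NH3, just inside the fold threshold. Cd7 and Thy1 were not called in any of the 3. Cd28, the main costimulatory receptor of naive T cells, fell by 1.08, 0.79 and 0.78, whereas Icos had -0.33, -0.24 and -0.18 (adjusted p = 0.193, 0.409 and 0.477) and Ctla4, the inhibitory partner of Cd28, -0.10, 0.08 and 0.02. Cd27 had -0.49, -0.57 and -0.50, past the p threshold alone.

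Il2rb fell with CuO by 0.89 and with CuO NH3 by 0.68, and Il7r, the receptor for the survival factor IL-7, by 0.69 and 0.59, while neither was called with CuO COOH. Of the 11 kinases and adaptors, Lck, Zap70, Txk and Skap1 fell with all 3 materials. Skap1, an adaptor that links the receptor to integrins, had -1.24 ± 0.15, -1.02 ± 0.15 and -0.90 ± 0.14, and Txk, a kinase of the Tec family, -1.11, -0.77 and -1.04. Sh2d1a fell with CuO alone among them, by 0.62, and had -0.43 and -0.51 with the other two, a difference between materials that was not called. The Lck probes gave -1.36 and -0.34 under CuO 40, and the gene value of -0.85 is their mean. Lcp2 had 0.06, 0.05 and 0.39, and Themis, Ubash3a, Trat1 and Sit1 were called in none. Ctla4, Themis and Ubash3a were dim, with the best probe well above background in 35, 38 and 34 of 89 samples. Ctla4 was well above background in 0 of 7 PBS and 0 of 3 CuO 40 samples, so a fall could hardly show.

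Of the 6 transcription factors, Lef1, Bcl11b and Ets1 fell with CuO, CuO COOH and CuO NH3. Lef1 was at 9.85 to 10.78 in PBS samples and at 8.98, 8.69 and 8.84 with CuO 40, 9.13, 9.25 and 8.73 with CuO COOH 40 and 9.18, 9.07 and 9.02 with CuO NH3 40, all below every PBS sample. Its log2 fold changes were -1.44 ± 0.13, -1.23 ± 0.13 and -1.18 ± 0.13 (adjusted p = 7.05e-14, 2.38e-11 and 1.04e-11). Bcl11b, which fixes the T cell fate, fell by 0.74, 0.64 and 0.72, and Ets1 by 0.77, 0.60 and 0.61. The endothelial marker Cdh5 (VE-cadherin) fell in the same groups by 1.13, 0.82 and 0.97, and its part in the change of Ets1 was not tested. Foxp3 had -0.12, 0.04 and -0.06 (adjusted p = 0.598, 0.916 and 0.792), with samples at 6.13, 5.84 and 5.86, then 6.05, 6.22 and 6.03, then 6.29, 5.91 and 5.79, which overlapped the PBS range of 5.83 to 6.26. The only Foxp3 probe was well above background in 74 of 89 samples, so a fall from these low levels may not show. With CuO PEG 40 Foxp3 was at 6.44, 6.47 and 6.90, above every PBS sample, and its log2 fold change of 0.55 (adjusted p = 0.00332) missed the fold threshold. Tcf7 had -0.57, -0.46 and -0.23 and Ikzf3 -0.45, -0.28 and -0.40, without a call. The Ikzf3 probes did not give the same size. The probe that was well above background in all 89 samples had -1.14, -0.78 and -0.77 with the 3 materials, and the other two, well above background in 18 and 72 samples, had -0.20 and -0.02 with CuO 40.

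**Figure D2:**
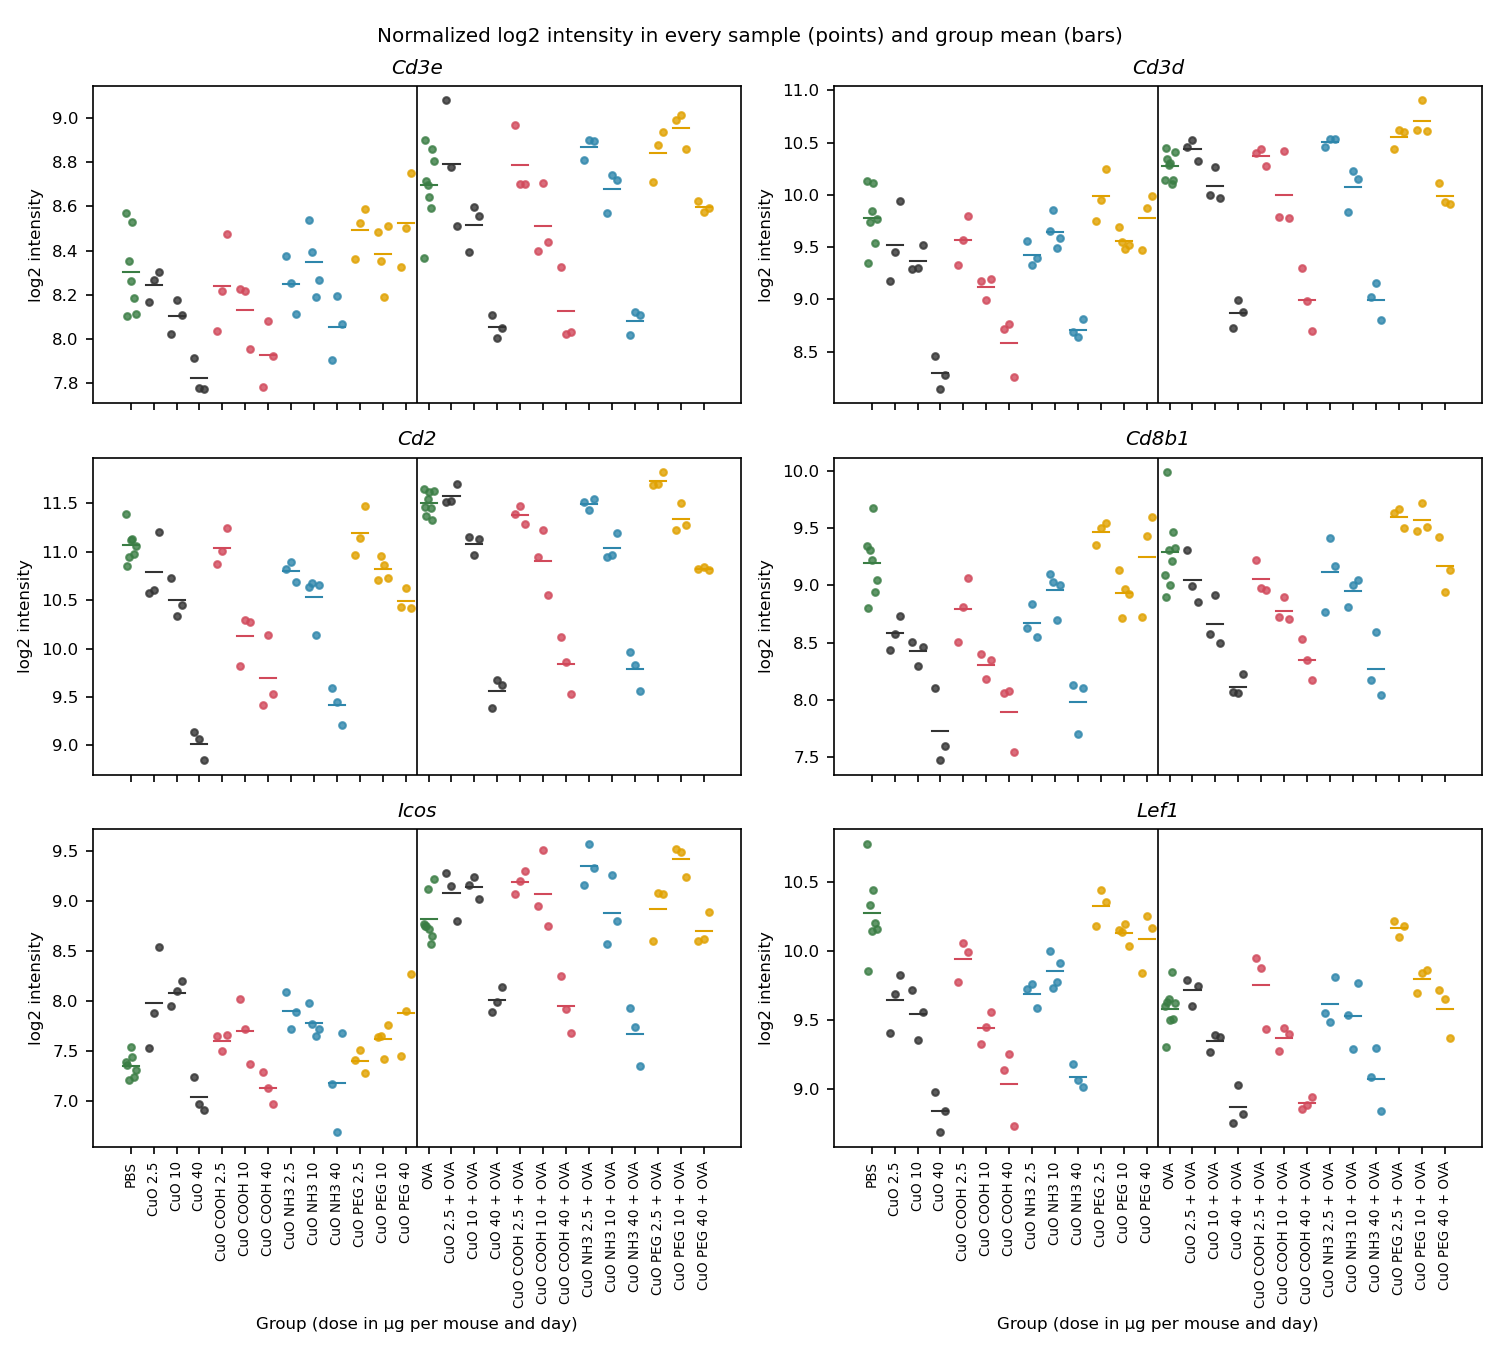
Normalized log2 intensity (vertical axes) of Cd3e, Cd3d, Cd2, Cd8b1, Icos and Lef1 in every sample (points) with the group mean (bars), for the 13 PBS-challenged groups (left of the line) and the 13 OVA-challenged groups (right), with doses in μg/mouse. The 40 μg/mouse samples of CuO, CuO COOH and CuO NH3 lie below the controls for Cd3d, Cd2, Cd8b1 and Lef1, with Cd2 at 8.85 to 10.14 against 10.86 to 11.39 in PBS samples, and Icos is at 8.57 or higher in OVA controls and at 8.25 or lower in those exposed groups.

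In OVA-challenged mice the same 3 materials at 40 μg/mouse lowered 21, 17 and 19 of the 37 genes against OVA controls (CuO, CuO COOH and CuO NH3), beside 1.92%, 1.93% and 2.47% of all genes, and raised 0, beside 1.7%, 2.36% and 2.66%. The medians were -0.71, -0.54 and -0.60, and all 37 values were below 0 with each of the 3. CuO PEG 40 lowered 1 gene (all genes 0.419%), with a median of -0.11. The CuO, CuO COOH and CuO NH3 samples lay below all 8 OVA samples for 33, 25 and 31 genes, beside 6.16%, 7.56% and 8.73% of all genes, and the CuO PEG samples for 6, beside 2.86%. These comparisons share the OVA samples. For CuO 40 the count was 9 with the array as a fixed term, which keeps only differences within arrays.

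Cd2 was at 11.33 to 11.65 (median 11.50) in OVA samples and at 9.39, 9.67 and 9.62 with CuO 40, 10.12, 9.86 and 9.53 with CuO COOH 40, 9.97, 9.84 and 9.57 with CuO NH3 40 and 10.82, 10.84 and 10.81 with CuO PEG 40. All 12 exposed samples were below every OVA sample, and the CuO PEG samples were above the other 9. The log2 fold changes were -1.94 ± 0.14, -1.66 ± 0.14, -1.70 ± 0.14 and -0.68 ± 0.15 (adjusted p = 1.49e-16, 7.02e-14, 3.55e-14 and 0.00232). Cd3d was at 10.10 to 10.44 (median 10.30) in OVA samples, at 8.72, 9.0 and 8.88 with CuO, at 9.30, 8.99 and 8.70 with CuO COOH and at 9.02, 9.16 and 8.80 with CuO NH3, without overlap. It fell by 1.40, 1.27 and 1.28, and with CuO PEG, at 10.12, 9.93 and 9.91, it had -0.29 (adjusted p = 0.358).

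Genes that OVA had raised were among those lowered, and 11 of the 14 were called lower with all 3 materials, beside 9.63% of all genes that OVA had raised (Cd3g, Cd5, Cd6, Thy1, Slamf6, Icos, Il2rb, Lck, Zap70, Lat and Sh2d1a). These counts share the OVA samples, so the values of each gene are given side by side. Il2rb was at 9.06 to 9.50 in OVA samples and at 7.72, 7.90 and 7.68 with CuO 40, which is under the PBS range of 7.89 to 8.25 for 2 of 3 samples. With CuO COOH 40 it was at 8.59, 8.06 and 8.29 and with CuO NH3 40 at 8.02, 8.01 and 7.89, and its log2 fold changes were -1.45 ± 0.14, -0.90 ± 0.14 and -1.24 ± 0.14 (adjusted p = 4.28e-12, 2.07e-06 and 3.78e-10). Icos was at 7.89, 7.99 and 8.14 with CuO, at 8.25, 7.92 and 7.68 with CuO COOH and at 7.92, 7.74 and 7.35 with CuO NH3, all below the lowest OVA sample of 8.57 and all but the last above the PBS range. It fell by 0.81, 0.87 and 1.15 (adjusted p = 0.000768, 0.000283 and 1.23e-06), and CuO PEG 40, at 8.61, 8.62 and 8.89, had -0.11. Il2ra fell with CuO, to 7.18, 7.72 and 7.28 from 7.84 to 8.84 (-0.95 ± 0.18, adjusted p = 9.76e-05), and had -0.52 with CuO COOH and -0.39 with CuO NH3.

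Genes of the receptor complex and of the kinases and adaptors fell with each of the 3 materials. Skap1 was at 9.83 to 10.40 (median 10.24) in OVA samples and at 8.64, 8.94 and 8.74 with CuO 40, and fell by 1.41, 1.22 and 1.22 with CuO, CuO COOH and CuO NH3. Cd6 was at 10.23 to 10.80 (median 10.49) in OVA samples, at 9.35, 9.14 and 9.04 with CuO COOH 40 and at 9.31, 9.53 and 8.82 with CuO NH3 40, and fell by 1.37, 1.33 and 1.28. Both genes were without overlap in the groups given. Lck fell by 1.07, 1.00 and 1.12, Zap70 by 1.07, 1.04 and 1.05, Lat by 0.99, 0.82 and 0.93 and Cd28 by 1.19, 0.98 and 1.07. Cd8b1 fell by 1.17, 0.94 and 1.02, from 8.90 to 9.99 (median 9.26) in OVA samples to between 8.04 and 8.59 in the 9 exposed samples. Cd3e was called with CuO (-0.64) and CuO NH3 (-0.62) and had -0.57 with CuO COOH, from 8.37 to 8.90 in OVA samples to 8.11, 8.00 and 8.05 with CuO, 8.33, 8.02 and 8.03 with CuO COOH, 8.02, 8.12 and 8.11 with CuO NH3 and 8.62, 8.58 and 8.59 with CuO PEG. The CuO PEG samples of Cd3e alone lay inside the OVA range. Again the Cd3e probes differed in size, with -0.47 and -0.81 with CuO, -0.36 and -0.77 with CuO COOH and -0.32 and -0.91 with CuO NH3.

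Cd4, Cd8a and Foxp3 were again not called. Cd4 had -0.15, -0.19 and -0.28 (adjusted p = 0.28, 0.125 and 0.0142), with samples at 7.77, 7.67 and 7.58 with CuO, 7.63, 7.58 and 7.68 with CuO COOH, 7.55, 7.62 and 7.47 with CuO NH3 and 7.86, 7.89 and 7.55 with CuO PEG, beside 7.66 to 7.94 in OVA samples. The CuO NH3 samples alone were all below the OVA range. Cd8a spanned 6.06 to 7.24 (median 6.61) in OVA samples and was at 6.00, 6.03 and 6.13 with CuO, at 6.01, 6.24 and 6.12 with CuO COOH, at 6.33, 6.28 and 5.84 with CuO NH3 and at 6.73, 6.36 and 6.63 with CuO PEG. All 4 groups overlapped the wide range of the OVA samples, and the differences for CuO, CuO COOH and CuO NH3 were -0.55, -0.48 and -0.45 (adjusted p = 0.00382, 0.0111 and 0.0124). Foxp3 had -0.48, -0.30 and -0.39 (adjusted p = 0.0102, 0.13 and 0.029), with samples at 6.18, 6.40 and 6.49, then 6.78, 6.40 and 6.43, then 6.53, 6.41 and 6.40, beside 6.55 to 7.00 in OVA samples and 7.02, 6.88 and 7.17 with CuO PEG. All but 1 of the samples of the first 3 materials were below the OVA range, and none of CuO PEG. Over both challenges, 10 genes were lower in all 6 groups given CuO, CuO COOH or CuO NH3 at 40 μg/mouse (Cd3d, Cd3g, Cd8b1, Cd2, Cd5, Cd6, Cd28, Lck, Zap70 and Skap1), beside 0.576% of all genes, 24 in at least 1, beside 7.87%, and 13 in none. The 6 comparisons share their controls. The 13 were Cd247, Cd4, Cd8a, Cd27, Ctla4, Lcp2, Themis, Ubash3a, Trat1, Sit1, Foxp3, Tcf7 and Ikzf3, where the brightest Ikzf3 probe had -1.25, -1.22 and -1.10 with OVA beside the values above. Probes of other genes among the 13 differed too. With OVA the Cd8a probe well above background in 78 samples had -0.67, -0.66 and -0.49. The other Cd8a probe, in 29, had -0.42, -0.29 and -0.42. With OVA the Cd4 probe well above background in 89 samples had -0.30, -0.29 and -0.48, and the other, in 45, -0.01, -0.09 and -0.08. With CuO NH3 40 and OVA the Cd247 probes had -0.71, -0.38 and -0.36. Against PBS, CuO 40 gave the Tcf7 probes -0.74 and -0.41 and the Trat1 probes -0.61 and -0.09.

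Whether a material acted differently in the 2 challenges was tested as the effect in OVA-challenged minus that in PBS-challenged mice. Lef1 fell less in OVA-challenged mice with CuO 40 (difference 0.72 ± 0.17, adjusted p = 0.00172) and with CuO NH3 40 (0.67 ± 0.17, adjusted p = 0.00625). Its level was already lower in OVA controls, and its samples ended close together, at 8.69 to 8.98 with CuO 40 alone and 8.75 to 9.03 with CuO 40 and OVA. Il2ra (-0.83 ± 0.25, adjusted p = 0.0123) and Cd7 (-0.62 ± 0.15, adjusted p = 0.00151) fell more in OVA-challenged mice with CuO 40, and Icos (-0.97 ± 0.24, adjusted p = 0.0046) and Thy1 (-0.69 ± 0.18, adjusted p = 0.00744) with CuO NH3 40. No other of the 37 genes was called to differ between challenges at 40 μg/mouse. The 3 genes with CuO and 3 with CuO NH3 stand beside 5.76% and 3.72% of all genes, and the 0 with CuO COOH and CuO PEG beside 2.53% and 1.11%. At lower doses Lef1 and Txk with CuO 2.5 (all genes 0.275%), Lef1 with CuO COOH 10 (0.279%) and Lef1, Slamf6 and Il7r with CuO NH3 2.5 (0.498%) were higher in OVA-challenged than in PBS-challenged mice as effects of the material.

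More of the 37 genes were called lower at 40 μg/mouse than at 2.5 or 10 μg/mouse with CuO, CuO COOH and CuO NH3 in both challenges. At 2.5 μg/mouse CuO lowered Cd8b1 (-0.60 ± 0.18) and Lef1 (-0.63 ± 0.13), 2 genes beside 0.415% of all, and raised Icos (0.62 ± 0.19), 1 gene beside 2%, while CuO COOH, CuO NH3 and CuO PEG gave 0 calls in PBS-challenged mice (all genes 0.563%, 1.74% and 0%). At 10 μg/mouse CuO lowered Cd8b1 (-0.77), Lef1 (-0.73), Skap1 (-0.68) and Ets1 (-0.62), beside 1.04% of all genes, and raised Icos again (0.73 ± 0.19, adjusted p = 0.00395), beside 2.81%. CuO COOH 10 lowered 7 genes (all genes 1.21%), with Cd2 at -0.94, Cd8b1 at -0.88, Lef1 at -0.82, Skap1 at -0.68, Cd3d at -0.67, Txk at -0.61 and Slamf6 at -0.60. CuO NH3 10 and CuO PEG 10 gave 0 calls, beside 3.36% and 0.585% of all genes.

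In OVA-challenged mice CuO 10 lowered Cd8b1 (-0.63, all genes 0.201%) and CuO COOH 10 lowered Cd2 (-0.59, all genes 0.258%). Il7r rose with CuO NH3 at 2.5 μg/mouse (0.71 ± 0.17, adjusted p = 0.00405, all genes 0.79%) and 10 μg/mouse (0.63 ± 0.17, adjusted p = 0.0154, all genes 0.917%), and Il2ra (0.68 ± 0.18, adjusted p = 0.0249) and Icos (0.61 ± 0.18, adjusted p = 0.0461) rose with CuO PEG 10 (all genes 0.45%). Between 10 and 40 μg/mouse, tested directly, CuO lowered 14 genes (all genes 1.92%) and CuO NH3 15 (2.2%) in PBS-challenged mice, and CuO lowered 19 (1.37%), CuO COOH 17 (0.646%) and CuO NH3 20 (1.2%) in OVA-challenged mice. Cd2 fell over this step by 1.49 with CuO and 1.11 with CuO NH3, and with OVA by 1.52 with CuO, 1.07 with CuO COOH and 1.24 with CuO NH3. CuO COOH without OVA gave 0 calls over the step (all genes lower 0.759%), with medians of -0.21 at 10 μg/mouse and -0.43 at 40 μg/mouse against PBS and with Cd2 at -0.94 and -1.37. CuO PEG gave 0 calls without OVA (all genes lower 0.275%) and 3 lower with OVA (0.157%), of which Cd3d had -0.73 ± 0.17 (adjusted p = 0.0334).

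**Figure D3:**
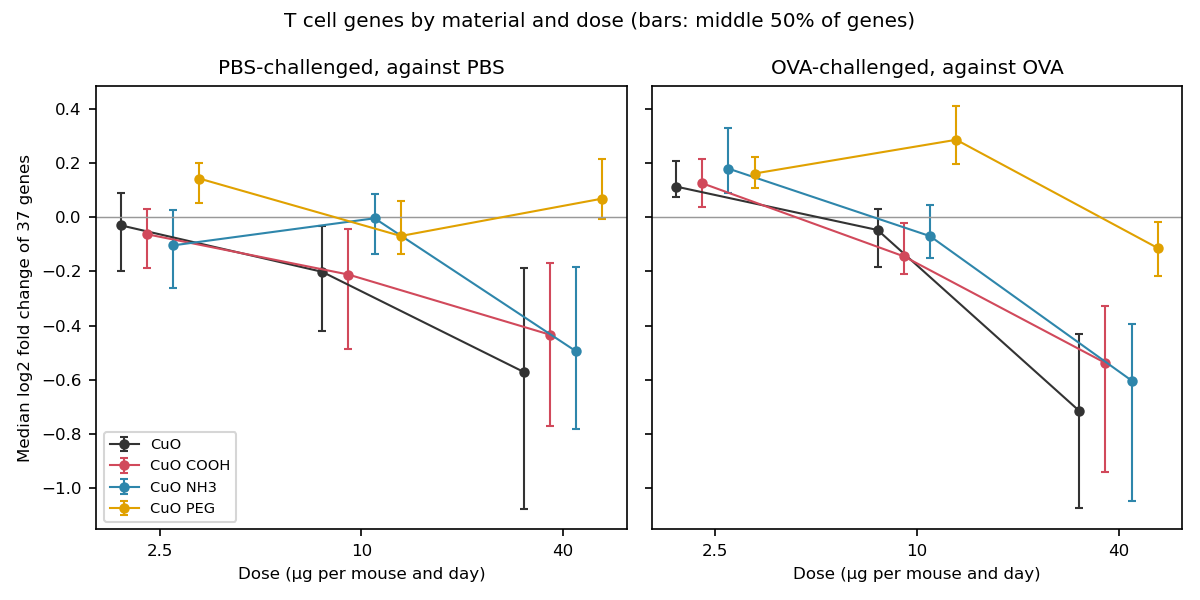
Median log2 fold change of the 37 genes (points) against dose in μg/mouse for the 4 materials, with bars over the middle 50% of genes, in PBS-challenged mice against PBS controls (left) and OVA-challenged mice against OVA controls (right). The lines of CuO, CuO COOH and CuO NH3 drop at 40 μg/mouse to between -0.43 and -0.71, while CuO PEG stays between -0.11 and 0.29.

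The surface of the material was compared at equal dose and challenge in 18 pairs, each modified material against CuO. CuO PEG and CuO differed at 40 μg/mouse. CuO PEG 40 was higher than CuO 40 for 25 of 37 genes, beside 1.99% of all genes, with a median log2 difference of 0.76, and in OVA-challenged mice for 21 genes, beside 0.969%, with a median of 0.71. None was lower in either, beside 2.51% and 0.166% of all genes. The largest differences were Cd6 at 1.57 ± 0.24 (adjusted p = 5.8e-06), Cd8b1 at 1.53 ± 0.24 (adjusted p = 8.32e-06), Cd3d at 1.49 ± 0.20 (adjusted p = 4.2e-07) and Cd2 at 1.48 ± 0.19 (adjusted p = 2.33e-07). With OVA they were Cd2 at 1.26 ± 0.19 (adjusted p = 0.000137), Cd6 at 1.23 ± 0.24 (adjusted p = 0.00174), Skap1 at 1.18 ± 0.19 (adjusted p = 0.000137) and Il2ra at 1.17 ± 0.25 (adjusted p = 0.00427).

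Every role took part in the difference between CuO PEG and CuO. It held 3 of 4 genes of the receptor complex, 2 of 3 coreceptors, 5 of 6 accessory receptors, 2 of 4 costimulatory receptors, 2 of 3 cytokine receptors, 6 of 11 kinases and adaptors and 5 of 6 transcription factors in PBS-challenged mice. Foxp3, not called against the controls, was higher with CuO PEG 40 than with CuO 40 by 0.67 ± 0.18 (adjusted p = 0.00887), from samples at 6.44, 6.47 and 6.90 against 6.13, 5.84 and 5.86, and by 0.66 ± 0.18 with OVA (adjusted p = 0.0418). Cd4 differed by 0.18 (adjusted p = 0.378). At lower doses CuO PEG was higher than CuO for Cd8b1 (0.89), Txk (0.72) and Lef1 (0.68) at 2.5 μg/mouse (all genes 0.441%) and for Tcf7 (0.62) and Lef1 (0.59) at 10 μg/mouse (all genes 0.179%), and for 0 genes at these doses with OVA (all genes 0% and 0.00436%). CuO PEG and CuO NH3 were hybridized on slides 4 to 6 and CuO and CuO COOH on slides 1 to 3, so a difference across these slides passes through the controls that both sets held, and surface chemistry and copper content cannot be told apart at equal mass.

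Few differences were found between CuO and the carboxylated or the methylaminated material. Cd2 was higher with CuO COOH 40 than with CuO 40 by 0.69 (95% interval 0.36 to 1.01, adjusted p = 0.0329), 1 gene beside 0.0917% of all, and its p adjusted over the 18 pairs was 0.000404. With OVA CuO COOH 40 gave 0 calls among the 37 genes (all genes 0.563%), and CuO NH3 40 gave 0 with either challenge (all genes 0.179%, and 0.393% with OVA). The 95% intervals of the 37 differences ran from -0.33 to 1.01 for CuO COOH 40 and from -0.47 to 0.94 for CuO NH3 40, and with OVA from -0.47 to 0.87 and from -0.83 to 1.05. Beside Cd2 with CuO COOH 40, no difference in these 4 comparisons was called.

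**Figure D4:**
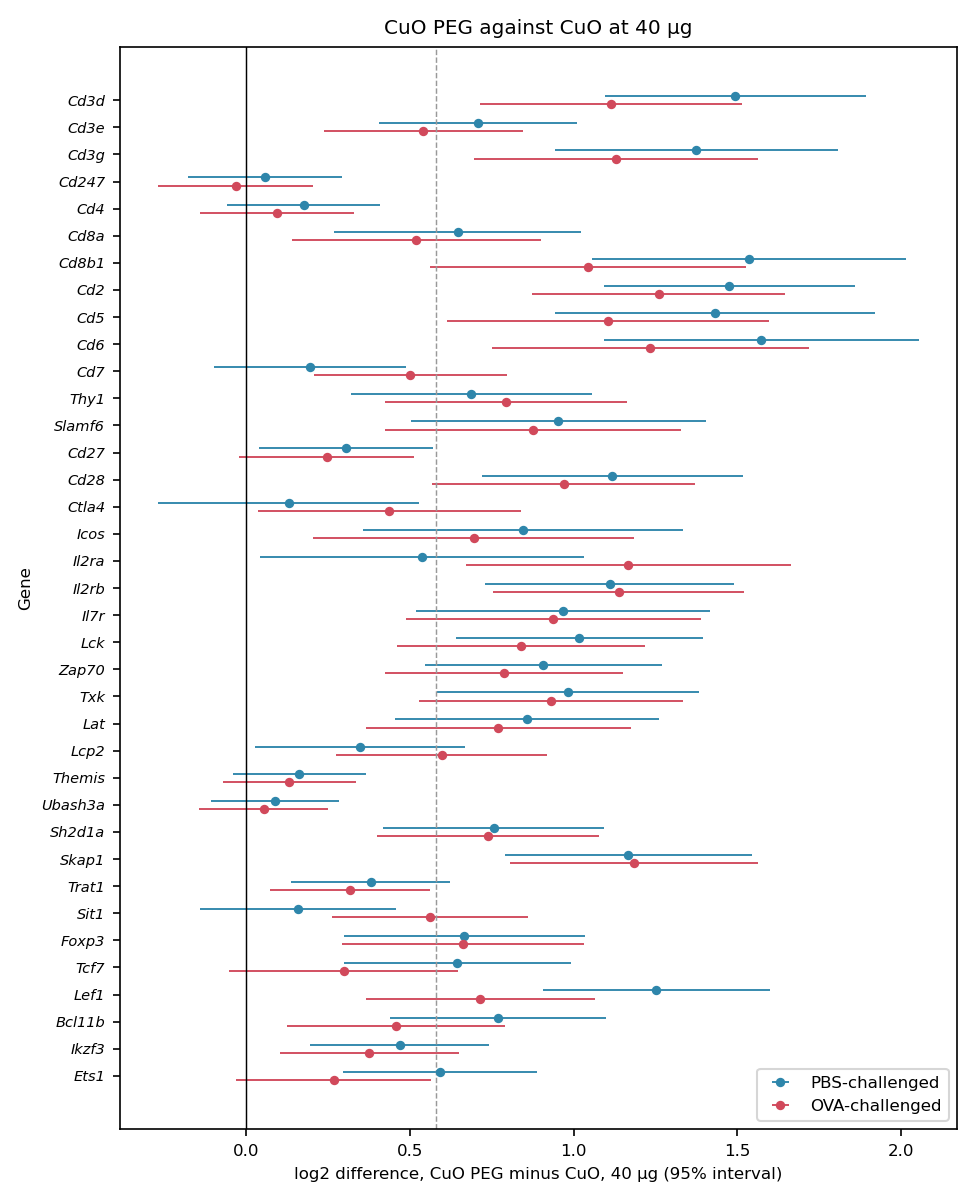
Log2 difference between CuO PEG and CuO at 40 μg/mouse for each of the 37 genes, with 95% intervals, in PBS-challenged and OVA-challenged mice. The dashed line marks the fold threshold of 0.58. Cd6, Cd8b1, Cd3d and Cd2 lie farthest to the right at 1.48 to 1.57 in PBS-challenged mice, and Cd247 and Cd4 lie near 0.

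Other genes that T cells use, not all of them only T cell genes, were read from fixed lists. Of 23 further genes of receptor signalling, 9 were lower with CuO 40 and 1 was higher, 6 and 1 with CuO COOH 40, 5 and 1 with CuO NH3 40, and 0 and 2 with CuO PEG 40. Of all genes, 5.05%, 3.95%, 5.4% and 0.807% were lower in these comparisons, and 6.89%, 5.31% and 6.86% were higher with the first 3. The share that was higher with CuO PEG 40 is not given here. Whether a list was called more often than other genes was not tested. Rhoh, an atypical small GTPase of blood cells, fell by 0.97 with CuO 40. Of 6 trafficking genes, 4 fell with each of CuO, CuO COOH and CuO NH3 in both challenges, but not always the same genes. Ccr7, the lymph node homing receptor, had -1.42 and its regulator Klf2 had -1.28 under CuO 40. S1pr1 fell by 0.76 with CuO 40 in PBS-challenged mice and had -0.35 without a call in OVA-challenged mice, where Itgal fell by 0.62. Klf2 also fell with CuO PEG 40 in PBS-challenged mice, by 0.66. The endothelial marker Cdh5 had -1.13 with CuO 40 and -0.34, without a call, with CuO PEG 40. Its part in the changes of Klf2 and S1pr1 was not tested. Of 18 helper subset genes, 4 rose with OVA, including Il4 (1.31) and Ifng (1.22). Il5 (0.45), Il13 (0.05), Gata3 (-0.19) and Stat6 (-0.15), also tied to type 2 responses, were not called with OVA. With CuO 40 in OVA-challenged mice 8 fell, where Il4 had -1.25, Ifng -1.18 and Cxcr5 -1.35. Of 13 activation and checkpoint receptors, 6 rose with OVA, with Pdcd1 (PD-1) at 1.61 and Tnfrsf4 (OX40) at 1.35. In PBS-challenged mice 2, 3, 2 and 1 of them rose with CuO, CuO COOH, CuO NH3 and CuO PEG at 40 μg/mouse and 1, 1, 1 and 0 fell. Tnfrsf9 (4-1BB) was higher with all 4 materials, by 1.11, 0.97, 1.08 and 1.41, and the inhibitory receptor Btla fell with the first 3, by 0.75, 0.60 and 0.60. In OVA-challenged mice 0, 1, 0 and 1 rose and 4, 4, 2 and 0 fell.

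Markers of other cells moved with the same groups. Of 12 NK and cytotoxic genes, 6, 5 and 9 fell with CuO, CuO COOH and CuO NH3 at 40 μg/mouse and 9, 6 and 9 with OVA, led by Gzma at -2.31 under CuO 40, and their mean level was 7.86 to 8.24 in PBS samples and 7.04 to 7.13 in CuO 40 samples. Of 10 B cell markers, 6, 5 and 4 fell and 4, 3 and 4 with OVA, with Ms4a1 (CD20) at -1.54 under CuO 40, and their mean level was 7.98 to 8.91 in PBS and 7.58 to 7.66 in CuO 40 samples. Of 9 measured neutrophil markers, 6 rose and 1 fell with CuO 40, and their mean level was 9.65 to 10.07 in PBS, 10.48 to 10.85 in CuO 40, 10.75 to 11.12 in CuO NH3 40 and 10.08 to 10.30 in CuO PEG 40 samples. With OVA it was 9.78 to 10.13 in the controls, 10.73 to 11.23 with CuO 40 and 10.86 to 10.90 with CuO PEG 40. The samples of CuO 40 and CuO PEG 40 overlapped with OVA and did not overlap without it. Lung tissue markers, the surfactant genes among them, had mean levels of 14.4 to 15.1 in the controls and in the 8 groups given 40 μg/mouse. Single genes of that list moved, since Sftpd rose in PBS-challenged mice by 0.95, 0.93, 0.99 and 0.99 with CuO, CuO COOH, CuO NH3 and CuO PEG, and the endothelial marker Pecam1 had -0.49, -0.78, -0.72 and -0.26, called lower with CuO COOH and CuO NH3. The part of these cells in the T cell values was not tested.

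**Figure D5:**
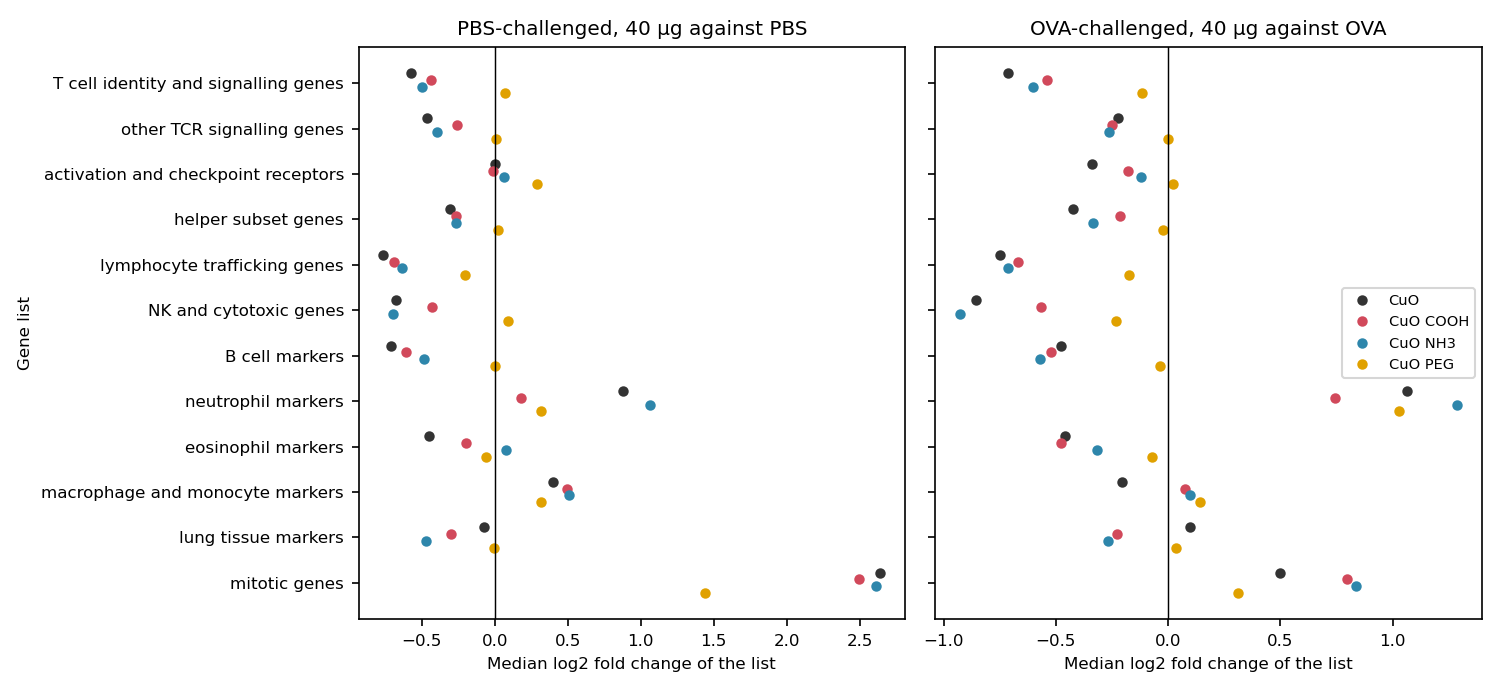
Median log2 fold change (horizontal axes) of the T cell genes and of 11 other lists (rows) for the 4 materials at 40 μg/mouse, in PBS-challenged (left) and OVA-challenged mice (right). The T cell row lies at -0.43 to -0.71 for CuO, CuO COOH and CuO NH3 and at 0.07 and -0.11 for CuO PEG, and the neutrophil row lies at 0.88 for CuO and 1.07 for CuO NH3 on the left.

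The mean over the 37 genes summarizes the groups. It was 7.80 to 8.24 in PBS and 8.36 to 8.63 in OVA samples, which did not overlap. With 40 μg/mouse it was 7.28 to 7.47 with CuO, 7.38 to 7.63 with CuO COOH and 7.44 to 7.58 with CuO NH3, and with OVA 7.59 to 7.76, 7.73 to 7.98 and 7.62 to 7.87, so that the OVA-challenged mice of these groups lay under the PBS median of 8.01. The CuO PEG 40 samples, at 7.98 to 8.21 and with OVA at 8.32 to 8.44, overlapped their controls in both challenges.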

How the data were processed

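Lung RNA pools were measured by the authors on 2-colour Agilent arrays, and the labels gave the group, dose and replicate number of each pool. The authors deposited Feature Extraction output (version 12.0.2.2 in the headers) with the unnormalized median intensity of each spot and channel, and a table of normalized log2 values that their methods describe as quantile normalized and batch adjusted, used here only as an alternative setting. The dose unit follows the paper, since the treatment text of the labels gives mg. The labels do not say which animals a pool held, so p-values measure the spread between pools.

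From the deposited intensities, the log2 median foreground was quantile normalized over 89 samples with the background kept in. Of 62976 spots, controls and marked outliers were dropped and the rest averaged to 56605 probes and, where the RefSeq table named the accession (32994 probes), to 22911 genes. A median of 60.5% (Cy3) and 58.8% (Cy5) of spots was well above background and 0 were saturated. The precision is limited by 3 samples in most groups. Of the 37 genes, 31 had a probe well above background in at least 80 samples. The samples lay on 46 arrays of 6 slides. A limma 3.58.1 model (R 4.3.3) held 26 groups, dye and slide as fixed terms and the array as a random block (correlation 0.0429). The model was also run on data simulated from a model of the same form, which does not test its assumptions on these data. P-values were adjusted with Benjamini-Hochberg over all genes of a comparison, and ± values are standard errors. The p adjusted over pairs takes 1 gene over the 18 pairs. By rule, values in every sample are given for Cd3e, Cd4, Cd8a and Foxp3 and for the 3 largest changes among called genes, in the OVA comparison and for each material at 40 μg/mouse, and at most 3 called genes of any other list are named for a comparison. The genes and lists were chosen with earlier results of these data known. The alternatives were other array, slide and replicate terms, background correction, normalization, probe filters, the deposited table, controls of the same slides, and each sample left out.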

Additional observations from a re-analysis of the deposited data

Results flagged for a closer look

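In 3 of 56 tests (13 genes and the mean over the 37 genes, each in 4 groups), 1 sample stood far from the others of its group. A test of this kind marks about 5% of groups by chance, and the tests are not independent, since 2 of the 3 are of the same sample. Replicate 3 of CuO NH3 10 was at 10.14 for Cd2 and at 7.89 for the mean over the 37 genes, and replicate 4 of CuO PEG 10 was at 6.81 for Il2ra.

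The effect of a material differed between OVA-challenged and PBS-challenged mice, by the test of the difference itself, for these genes. Lef1 differed by 0.76 with CuO 2.5, by 0.72 with CuO 40, by 0.62 with CuO COOH 10, by 0.61 with CuO NH3 2.5 and by 0.67 with CuO NH3 40, each time with the higher value in OVA-challenged mice. These differences share the control samples of both challenges. Txk differed by 0.72 with CuO 2.5, and Slamf6 by 0.84 and Il7r by 0.83 with CuO NH3 2.5. Lower values in OVA-challenged mice were found for Cd7 (-0.62) and Il2ra (-0.83) with CuO 40 and for Thy1 (-0.69) and Icos (-0.97) with CuO NH3 40. With each of CuO 40 and CuO NH3 40, 1 of the 37 genes was higher and 2 were lower. Of all genes, 5.76% and 3.72% were called in these comparisons. Calls of higher level covered 0.275% of all genes with CuO 2.5, 0.279% with CuO COOH 10 and 0.498% with CuO NH3 2.5. Whether the 37 genes were called more often than other genes was not tested.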

How the results depend on the processing

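No gene called in the OVA comparison or against controls at 40 μg/mouse changed sign under another setting. The calls kept in every setting that measured the gene were 10 of 15 for OVA, then for CuO, CuO COOH, CuO NH3 and CuO PEG 16 of 18, 10 of 15, 10 of 16 and 0 of 1 against PBS and 9 of 21, 14 of 17, 14 of 19 and 0 of 1 against OVA. Of all values, 539 of 556 medians and 72 of 82 counts of calls moved by less than the limits used (0.17 on the log2 scale for a median, the SD between replicates, and 1.5 times for a count). With every array as a fixed term the medians against PBS were -0.68 for CuO NH3 40, 0.12 for CuO COOH 2.5, -0.39 for CuO 10 and -0.74 for CuO 40, and against OVA -0.55 for CuO 40. It was -0.24 for CuO NH3 2.5, 0.40 for CuO NH3 10, 0.40 for CuO PEG 10 and 0.95 for CuO PEG 40 against CuO, and as differences between challenges -0.018 for CuO NH3 40, 0.087 for CuO COOH 40, -0.15 for CuO COOH 2.5 and 0.38 for CuO 10. The counts of calls were then 9 for CuO 40 against OVA and 0 for CuO PEG 40 in each challenge. The 1 call of CuO PEG 40 against PBS became 0 without the block, with normexp, with loess and without dim probes, and 2 with the controls of slides 4 to 6. Without dim probes the median was -0.89 for CuO 40 against OVA and -0.82 for CuO 40 against CuO 10 with OVA. With 1 probe for each gene, chosen after seeing the data, it was -0.81 for CuO NH3 40 against OVA and -0.81 for CuO 40 against CuO 10 with OVA. The cause was not tested.

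Leaving out 1 sample gave 9 to 16 calls for CuO COOH 40, with 9 without its replicate 3, and 0 to 2 for CuO PEG 40, with 0 without PBS replicate 1, 4 or 5 or CuO PEG 40 replicate 3 and 2 without CuO PEG 40 replicate 1 or 2. It gave 1 to 2 for CuO PEG 40 against OVA, with 2 without its replicate 2 or OVA replicate 5 or 8, and medians of -0.68 to -0.36 for CuO COOH 40 against CuO COOH 10 with OVA, with -0.68 without CuO COOH 40 + OVA replicate 1. The labels do not say that a replicate number marks a shared batch. Of 984 pairs with the same number 398 had a correlation of deviations over 0.1 (median 0.0699, from -0.337 to 0.675), and pairs with other numbers had a median of -0.0285. For 67 of 74 exposed samples the number followed the slide, a term of the model. With the replicate number as a block in place of the slide, CuO PEG 40 had 3 calls against PBS and 2 against OVA, and no other count moved past the limit.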

Other observations

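All 8 mitotic genes read, such as Mki67 and Top2a, rose with OVA (median log2 fold change 1.72) and rose with all 4 materials at 40 μg/mouse in PBS-challenged mice, by a median of 2.64 with CuO, 2.49 with CuO COOH, 2.61 with CuO NH3 and 1.44 with CuO PEG. The T cell genes had medians of -0.57, -0.43, -0.50 and 0.07 in the same 4 groups. Against OVA controls, 1, 7, 7 and 1 of the 8 mitotic genes rose with CuO, CuO COOH, CuO NH3 and CuO PEG at 40 μg/mouse, with medians of 0.50, 0.79, 0.84 and 0.31, beside T cell medians of -0.71, -0.54, -0.60 and -0.11. Of the 5 eosinophil markers, 3 rose with OVA.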
